A study of Mus musculus with 2 samples.

Results

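The phagocyte NADPH oxidase genes described here are 6 rows of the deposited table, matched by gene symbol among 55401 gene rows: Cybb, Cyba, Ncf1, Ncf4, Rac1 and Rac2. All 6 symbols were found once. They were measured by sequencing of poly(A) RNA from myeloid-derived suppressor cells (MDSCs), a mixed population of immature neutrophils and monocytes that dampens T cell responses in tumours. The cells came from C57BL/6 mice of 8 weeks that bore MC38 tumours (MC38 is a mouse colon cancer cell line), were isolated with magnetic beads, and were kept with MC38 cells for 24 h before RNA was taken. One library came from LysM-cre, Mettl3fl/fl mice, in which Cre is made from the lysozyme 2 locus in myeloid cells, and 1 library came from Mettl3fl/fl mice without Cre, so both genotypes carried the floxed alleles. One label of the sample with Cre reads MC39, not MC38. How many animals went into a library is not given in the labels.

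The phagocyte oxidase, also called NOX2, makes superoxide by passing electrons from NADPH across a membrane to oxygen. Its catalytic core sits in the membrane as a pair of proteins, and it becomes active when cytosolic subunits and a Rac GTPase join it after the cell is stimulated. Neutrophils and macrophages use it to kill microbes, its loss causes chronic granulomatous disease, and in MDSCs the reactive oxygen it makes is known as one of the means of restraining T cells.

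With 1 library per genotype no difference here has a replicate check, and no p-value is given. Each ratio compares the share of a gene in all counts of its library (scaled as CPM), the LysM-cre-labelled library over the floxed control library. Its exact 95% interval holds counting error and nothing else, which makes it a statement on 2 libraries rather than on 2 genotypes. Total counts were 59393864 in the LysM-cre-labelled library and 59506878 in the floxed control library. Mettl3, the targeted gene and the catalytic subunit of the enzyme that writes N6-methyladenosine on messenger RNA, held 1333 counts in the Cre-labelled library and 1413 counts in the floxed control library, a ratio of 0.945 (95% interval 0.876 to 1.02). The row counts the whole gene, so it does not check the deletion of the floxed exons, and the Cre genotype is therefore given as a label throughout. The libraries are also called the Cre-labelled and the control library, and a ratio followed by a range in parentheses is the CPM ratio with its 95% interval.

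As a group, the 6 oxidase genes lay at similar levels in the 2 libraries. Levels are given in FPKM, fragments per kilobase of transcript scaled to the depth of the library. Their summed level was 1016 FPKM in the LysM-cre-labelled library and 1052 FPKM in the floxed control library. Together they took 0.359% of all counts in the Cre-labelled library and 0.375% in the control library. On the log2(FPKM + 1) scale 1 gene (Rac1) was higher and 5 were lower in the LysM-cre-labelled library, with differences between −0.14 (Cybb) and 0.07 (Rac1) and a median of −0.03. Over all 12526 genes kept (mean FPKM of at least 1), 6295 were higher and 6231 lower, with a median of 0.00.

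**Figure D1:**
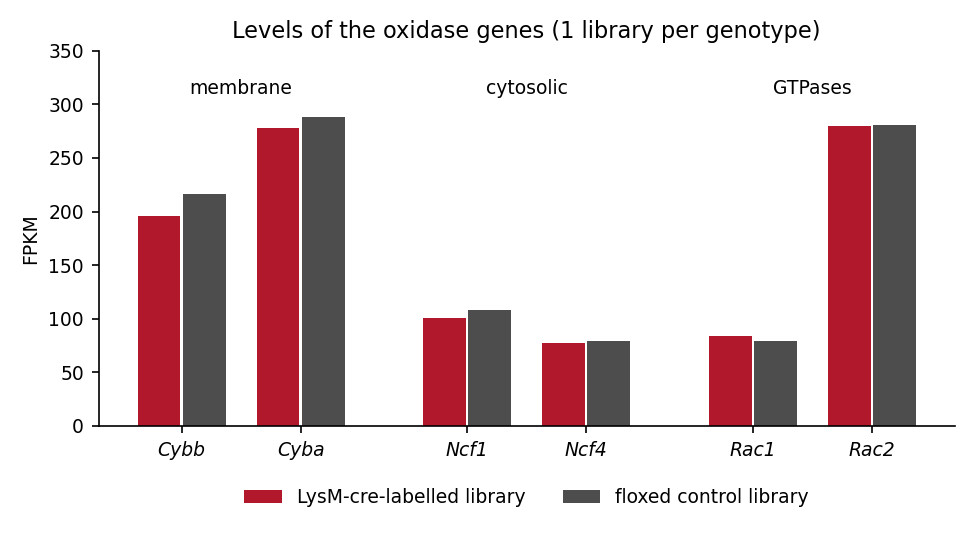
Bars give the FPKM (y axis, linear) of each oxidase gene in the LysM-cre-labelled library (red, left) and the floxed control library (grey, right), with 1 library each and so no error bars. Cyba and Rac2 stand between 278 and 288 FPKM in both libraries, Cybb stands at 196 FPKM in the LysM-cre-labelled library and 216 FPKM in the floxed control library, and Ncf1, Ncf4 and Rac1 lie between 77.7 and 108 FPKM.

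The membrane pair held the largest difference among the 6 genes. Cybb encodes gp91phox, the catalytic subunit that carries the haem groups and the NADPH site (ENSMUSG00000015340, chromosome X, 9435252 to 9487771, minus strand, mm10). Cybb stood at 196 FPKM on 75709 counts in the LysM-cre-labelled library, against 216 FPKM on 83900 counts in the floxed control library. The CPM ratio was 0.904 (95% interval 0.895 to 0.913), a lower level by a margin larger than counting error. Cyba encodes p22phox, the partner that stabilises gp91phox and docks the cytosolic subunits (ENSMUSG00000006519, chromosome 8, 122424776 to 122432930, minus strand). Cyba stood at 278 FPKM on 19274 counts in the LysM-cre-labelled library and at 288 FPKM on 19995 counts in the floxed control library. Its ratio was 0.966 (95% interval 0.947 to 0.985), also below 1. The proportion within the pair differed between the libraries by more than counting error. Cybb stood at 0.703 of the FPKM of Cyba in the LysM-cre-labelled library and at 0.751 in the floxed control library, and the ratio of these proportions, from counts, was 0.936 (95% interval 0.916 to 0.957 by the delta method, counting error only). Neither this nor the ratios of proportions below were set against other gene pairs, so they do not mark these pairs as unusual. Of the genes with a mean of at least 50 FPKM, 81.5% had a CPM ratio interval off 1.

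Of the cytosolic pair, Ncf1 was lower beyond counting error and Ncf4 was not. Ncf1 encodes p47phox, the organiser that is phosphorylated on activation and binds p22phox (ENSMUSG00000015950, chromosome 5, 134220053 to 134229625, minus strand). Ncf1 stood at 101 FPKM on 24589 counts in the LysM-cre-labelled library and at 108 FPKM on 26547 counts in the floxed control library. The ratio was 0.928 (95% interval 0.912 to 0.944), the second lowest of the 6. Ncf4 encodes p40phox, which binds a phosphoinositide of the phagosome membrane (ENSMUSG00000071715, chromosome 15, 78244801 to 78262580, plus strand). Ncf4 stood at 77.7 FPKM on 10462 counts in the LysM-cre-labelled library and at 78.8 FPKM on 10638 counts in the floxed control library. Its ratio of 0.985 had an interval that held 1 (0.959 to 1.01), so no difference was detectable at this depth with scaling to total counts. Ncf1 stood at 1.30 times the FPKM of Ncf4 in the LysM-cre-labelled library and at 1.38 times in the floxed control library. The ratio of these proportions was 0.942 (95% interval 0.912 to 0.973).

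The stretch before the transcription start of the genes with the lowest ratios is shown because myeloid transcription factors described further on are known to act there in the human counterpart of Cybb. That of Cyba is set beside it. RefSeq promoter windows (GRCm38.p6, the assembly of mm10) were matched for Cybb, Ncf1 and Cyba, and not for Ncf4, Rac1 and Rac2. The 250 bases before the start are given on the strand of the gene, at chrX:9469325-9469574 for Cybb, chr5:134229626-134229875 for Ncf1 and chr8:122432941-122433190 for Cyba, all on the minus strand. The row of Cybb holds 5 transcripts and reaches 9487771, so its window lies inside the row. The RefSeq start used for Cybb is thus not the outermost start of the row. Capitals mark the core of an interferon response element, searched as GAAA, any 2 bases and GAAA on both strands, so that a match on the other strand reads TTTC, 2 bases and TTTC.
Cybb: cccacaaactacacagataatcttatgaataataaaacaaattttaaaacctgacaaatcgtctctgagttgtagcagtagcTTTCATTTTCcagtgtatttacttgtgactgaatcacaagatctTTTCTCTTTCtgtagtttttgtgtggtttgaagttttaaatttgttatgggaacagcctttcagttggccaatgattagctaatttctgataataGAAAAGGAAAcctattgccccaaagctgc
Ncf1: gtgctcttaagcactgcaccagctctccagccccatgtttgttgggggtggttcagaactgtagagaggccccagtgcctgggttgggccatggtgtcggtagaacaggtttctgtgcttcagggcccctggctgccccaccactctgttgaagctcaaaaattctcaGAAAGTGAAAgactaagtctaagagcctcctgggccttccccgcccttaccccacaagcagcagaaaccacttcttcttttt
Cyba: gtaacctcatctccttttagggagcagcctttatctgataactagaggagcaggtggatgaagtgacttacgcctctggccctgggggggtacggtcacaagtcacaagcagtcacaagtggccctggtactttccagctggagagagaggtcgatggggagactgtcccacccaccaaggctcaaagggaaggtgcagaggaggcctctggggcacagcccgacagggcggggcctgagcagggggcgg
Cybb held 3 such matches, the first base of each (in the direction of the gene) at −168, −124 and −29 from the start. Ncf1 held 1, at −82, and Cyba held none. Of 32851 windows of the same length (250 bases before and 50 after the start), 3.44% held this motif on either strand. The motif GAGGAA, the core of many sites of PU.1, occurred once in the windows of these genes, after the start of Cybb and on the other strand, against 28.3% of all windows. The GC box GGGCGG occurred 2 times in the window of Cyba and once in that of Ncf1, on the other strand, against 35.7% of all windows. TATAAA, held by 13.6% of all windows, occurred in none of the 3. None of these motifs overlapped another in these windows. A match says only that the letters are there.

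The GTPases held both the ratio nearest to 1 and the only ratio above 1. Rac2 encodes the Rac protein of blood cells that supports the oxidase in neutrophils (ENSMUSG00000033220, chromosome 15, 78559167 to 78572783, minus strand). Rac2 stood at 280 FPKM on 57984 counts in the LysM-cre-labelled library and at 281 FPKM on 58244 counts in the floxed control library. The ratio was 0.997 (95% interval 0.986 to 1.01), the nearest to 1 of the 6. Rac1 encodes the widely expressed form, used by the oxidase of monocytes and macrophages (ENSMUSG00000001847, chromosome 5, 143503634 to 143528036, minus strand). Rac1 stood at 83.9 FPKM on 25132 counts in the LysM-cre-labelled library and at 79.6 FPKM on 23925 counts in the floxed control library. Its ratio was 1.05 (95% interval 1.03 to 1.07), the only one of the 6 above 1. Rac2 stood at 3.34 times the FPKM of Rac1 in the LysM-cre-labelled library and at 3.53 times in the floxed control library, with a ratio of proportions of 0.948 (95% interval 0.928 to 0.968). With counts per kilobase of the GENCODE transcript that has the longest coding part in place of the deposited FPKM, these proportions were 1.77 in the Cre-labelled library and 1.86 in the control library.

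Reads of Rac1 and Rac2 could be told apart at this read length, but those of Rac1 and a gene on the other strand less surely. The coding parts of Rac1 and Rac2 were identical at 446 of 579 bases (77.0%), with no identical run longer than 29 bases, against reads of 150 bases. Rac1 shared no 50-base stretch with another gene on its own strand. On the other strand, 50.3% of its 50-base stretches lay in transcripts of Daglb, a diacylglycerol lipase gene whose row overlaps that of Rac1. Daglb held 4483 counts in the LysM-cre-labelled library and 3896 in the floxed control library, a ratio of 1.15 with an interval above 1. The library kit marks strand, but the sources used here do not say whether the counting used it. With the rows overlapping on either strand added to Rac1, its ratio was 1.07. Cybb and Ncf4 shared no 50-base stretch with any other gene, and the shares of Cyba, Ncf1 and Rac2 on their own strand were 2.39%, 0.189% and 0.484%. On either strand these shares were 2.39%, 7.45% and 1.29%. The row of Ncf1 overlaps that of Gtf2ird2 on the other strand, and with that row added the ratio of Ncf1 was 0.927.

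The order of levels per length was the same in both libraries apart from the first place. In the LysM-cre-labelled library Rac2 (280 FPKM) and Cyba (278 FPKM) came first. In the floxed control library Cyba (288 FPKM) came before Rac2 (281 FPKM), so these neighbours exchanged places on the deposited FPKM. Cybb, Ncf1, Rac1 and Ncf4 followed in this order in both, with Rac1 and Ncf4 as the closest of these neighbours in the control library. With 1 library each there is no spread to set against these gaps. By mean FPKM, Cyba ranked 159th, Rac2 161st, Cybb 222nd, Ncf1 482nd, Rac1 624th and Ncf4 650th among the 12526 genes kept. This order depends on the length used. In CPM per kilobase of the transcript with the longest coding part of each gene, Cyba came before Rac2 in both libraries, with Cyba at 436 in the Cre-labelled and 452 in the control library and Rac2 at 321 in the Cre-labelled and 322 in the control library. On the same scale Rac1, at 182 in the Cre-labelled and 173 in the control library, came before Ncf1, at 150 in the Cre-labelled and 161 in the control library. For Rac1, counts and FPKM together imply a length of 5046 bases, 2.17 times that transcript, while this quotient was 1.15 to 1.57 for the other 5 genes.

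None of the 6 genes differed by 2-fold, 1.5-fold or 1.2-fold in FPKM + 1. Of the genes kept, 1.31% were at least 2-fold higher and 1.18% at least 2-fold lower in the LysM-cre-labelled library. At least 1.5-fold higher were 3.19% and at least 1.5-fold lower 3.28%, and 10.9% were at least 1.2-fold higher and 9.85% at least 1.2-fold lower. The CPM ratio interval lay below 1 for 3 of the 6 genes (Cybb, Cyba and Ncf1), against 29.7% of all genes kept, and above 1 for Rac1 alone, against 30.1%. In either direction that makes 4 of 6, beside 59.8% of all genes kept and 81.5% of the 992 genes whose mean was at least 50 FPKM, the range in which all 6 lie. Intervals off 1 were thus about as frequent among the 6 genes as among other genes of their level or less so. The difference of Cybb was exceeded in size by 40.7% of the genes kept, that of Ncf1 by 52.4%, that of Rac1 by 64.8%, that of Cyba by 75.7%, that of Ncf4 by 89.8% and that of Rac2 by 98.3%. Every one of the 6 thus lay well inside the spread of the other genes. The differences of Cybb and Ncf1 were near the median size over all genes kept, 0.11 in either direction.

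**Figure D2:**
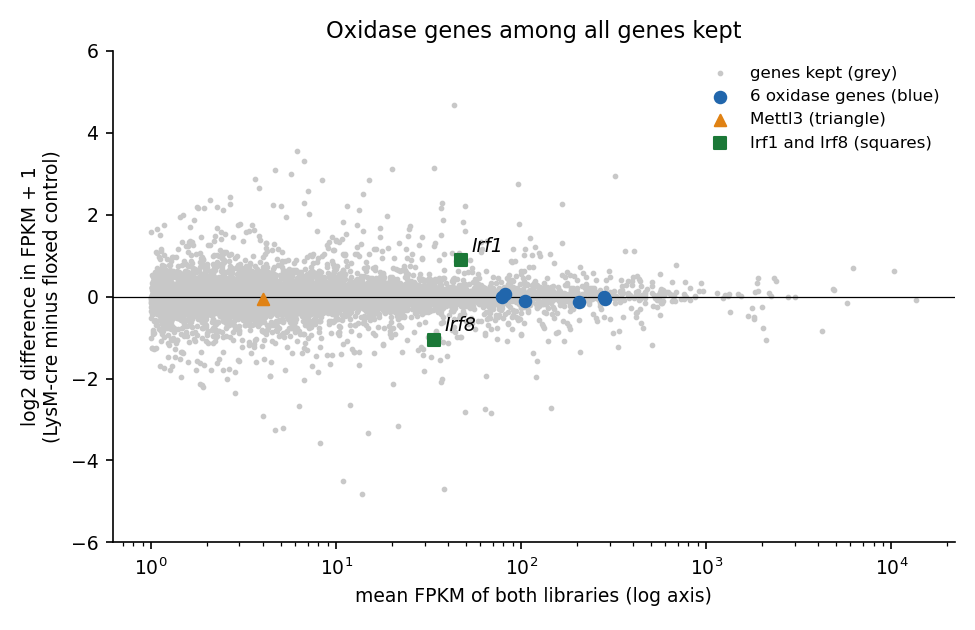
Each point is a gene kept, with mean FPKM of both libraries (x, log axis) and log2 difference in FPKM + 1, LysM-cre-labelled library minus floxed control library (y). The 6 oxidase genes (blue) lie between −0.14 and 0.07, inside the grey band of all genes, and Mettl3 (triangle) lies at −0.07. Irf8 at −1.05 and Irf1 at 0.89 (green squares) lie farther out. Of the genes kept, 2.20% had a larger difference than Irf8 and 3.12% a larger one than Irf1.

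The partners of the complex given here were at or slightly above their level in the floxed control library. All 6 genes given were kept, and the CPM ratio interval lay above 1 for 4 (30.1% of all genes kept) and below 1 for 0 (29.7% of all genes kept), with a median log2 difference of 0.06. Cybc1, a chaperone needed for gp91phox protein, stood at 25.7 FPKM in the Cre-labelled and 24.3 FPKM in the control library (1.06, 1.02 to 1.09). Hvcn1, the proton channel that balances the charge moved by the oxidase, stood at 35.2 FPKM in the Cre-labelled and 33.2 FPKM in the control library (1.06, 1.03 to 1.09). The Rap GTPases, of which Rap1a is known to copurify with the membrane core, stood at 73.4 FPKM in the Cre-labelled and 71.7 FPKM in the control library for Rap1a (1.02, 0.998 to 1.05) and at 222 FPKM in the Cre-labelled and 213 FPKM in the control library for Rap1b (1.04, 1.03 to 1.06). Among the inhibitors that hold Rac in the cytosol, Arhgdia stood at 268 FPKM in the Cre-labelled and 258 FPKM in the control library (1.04, 1.02 to 1.05) and Arhgdib at 412 FPKM in the Cre-labelled and 411 FPKM in the control library (1.00, 0.989 to 1.02). Cybc1 was thus higher and Cybb lower in the same library, each by more than counting error, as were 59.8% of all genes kept in either direction. Neither difference was large. Of the genes kept, 62.0% had a larger difference than Cybc1 and 40.7% a larger one than Cybb.

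**Figure D3:**
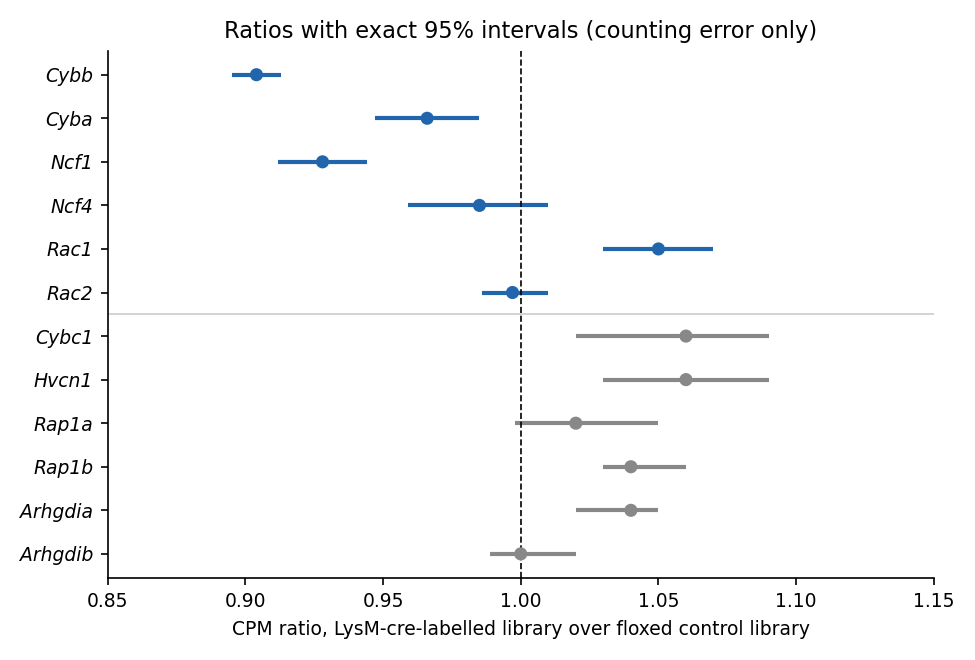
Points give the CPM ratio, LysM-cre-labelled library over floxed control library (x axis), and lines its exact 95% interval, for the 6 oxidase genes (blue, above) and their partners (grey, below). Cybb at 0.904 and Ncf1 at 0.928 lie farthest below 1, and none of the partners plotted has an interval below 1.

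Genes of other NADPH oxidases lay at or near 0 counts. Of 10 genes for other oxidases, their partners and Rac3, 7 held 0 counts in both libraries, which allows a level of up to 0.0505 CPM in the LysM-cre-labelled library and 0.0504 CPM in the floxed control library. Nox1 held 0 counts in the Cre-labelled library and 4 in the control library. Rac3, the third Rac, held 88 counts in the LysM-cre-labelled library and 43 in the floxed control library (ratio 2.05, 95% interval 1.41 to 3.03), at 1.00 FPKM in the Cre-labelled and 0.489 FPKM in the control library. None of the 10 reached a mean of 1 FPKM. Noxo1, the organiser of the colon oxidase, stood at 0.629 FPKM in the Cre-labelled and 0.573 FPKM in the control library.

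Genes listed for turning Rac on and off lay on both sides of 1. In this list and the next ones, the counts stand beside 30.1% of all genes kept with an interval above 1 and 29.7% with one below 1. The exchange factors were listed with Elmo1 and Elmo2, which are partners of Dock proteins, and Dock8, which acts on Cdc42. Of these 13 genes the interval lay above 1 for 3 (Elmo2 among them, 1.05, 1.02 to 1.07) and below 1 for 4. The median log2 difference was −0.01. Prex1, an exchange factor of neutrophils that responds to G protein-coupled receptors, stood at 50.2 FPKM in the LysM-cre-labelled library and 41.6 FPKM in the floxed control library (1.21, 1.19 to 1.22). Vav3 stood lower, at 7.44 FPKM in the Cre-labelled and 9.75 FPKM in the control library (0.763, 0.727 to 0.800), as did Tiam1 at 6.15 FPKM in the Cre-labelled and 7.02 FPKM in the control library (0.874, 0.838 to 0.912), while Def6 stood at 26.5 FPKM in the Cre-labelled and 24.0 FPKM in the control library (1.10, 1.06 to 1.15). Of 10 genes listed as GTPase-activating proteins, which switch Rac off, the interval lay above 1 for 2 and below 1 for 7. Their median was −0.09. Fmnl1, among those below 1 (0.981, 0.968 to 0.994), is a formin gene and not of this kind. Arhgap15 held 5889 counts in the LysM-cre-labelled library and 6858 in the floxed control library (0.860, 0.831 to 0.891). Arhgap17 stood at 12.8 FPKM in the Cre-labelled and 14.3 FPKM in the control library, Srgap2 at 8.45 FPKM in the Cre-labelled and 9.35 FPKM in the control library, and Chn2 went the other way at 3.49 FPKM in the Cre-labelled and 3.02 FPKM in the control library. Both lists had a median within 0.1 of that of all genes, 0.00.

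Kinases and lipid enzymes that act on the cytosolic subunits had no common direction. Of 20 genes 18 were kept, with the interval above 1 for 4, below 1 for 7 and a median log2 difference of 0.01. Pla2g4a, the phospholipase that frees arachidonic acid, stood at 5.15 FPKM in the LysM-cre-labelled library and 4.24 FPKM in the floxed control library (1.21, 1.14 to 1.29). Akt2 stood at 20.4 FPKM in the Cre-labelled and 18.4 FPKM in the control library (1.11, 1.08 to 1.14). The MAP kinase genes Mapk3 (67.8 FPKM in the Cre-labelled and 73.7 FPKM in the control library; 0.918, 0.894 to 0.944) and Mapk14 (26.1 FPKM in the Cre-labelled and 28.3 FPKM in the control library; 0.921, 0.892 to 0.950) stood lower.

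The factors known to act on oxidase promoters held the only differences past 1.5-fold among the lists of oxidase regulators. Of 20 such genes 17 were kept, with the interval above 1 for 7 and below 1 for 6 and a median log2 difference of 0.00. At 1.5-fold or more 1 was higher and 1 lower, beside 3.19% of all genes kept higher and 3.28% lower. Irf8, which can act together with PU.1 and is known to activate Cybb, stood at 21.5 FPKM on 10122 counts in the LysM-cre-labelled library, against 45.7 FPKM on 21524 counts in the floxed control library (ratio 0.471, 95% interval 0.460 to 0.482). Irf1, which binds interferon response elements, stood at 62.0 FPKM in the Cre-labelled and 33.0 FPKM in the control library (1.87, 1.83 to 1.92). Irf8 and Irf1 were thus opposite in direction. Both are known to bind elements of the kind searched for in the promoter windows above. No window was matched for Ncf4, Rac1 and Rac2, so the motif cannot be set against the ratios of all 6 oxidase genes. Spi1, which encodes PU.1, stood at 144 FPKM in the Cre-labelled and 154 FPKM in the control library (0.940, 0.924 to 0.956), Rela at 37.2 FPKM in the Cre-labelled and 29.9 FPKM in the control library (1.25, with an interval above 1) and Jun at 135 FPKM in the Cre-labelled and 167 FPKM in the control library (0.812, 0.799 to 0.824). Whether any of these bears on the oxidase genes was not tested.

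**Figure D4:**
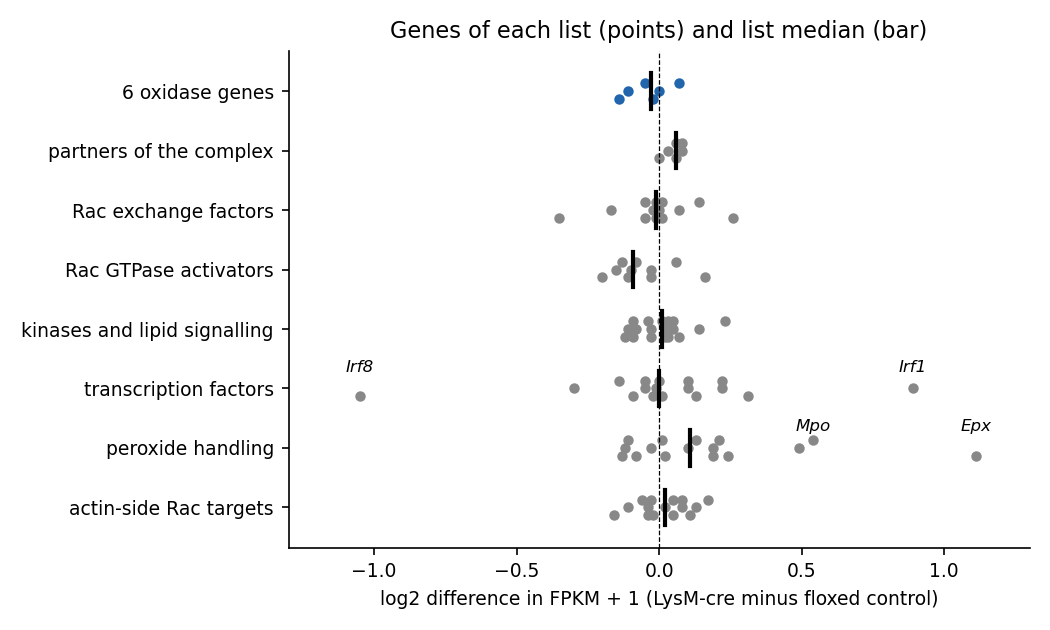
Points are the kept genes of each list and black bars the list medians, on the log2 difference in FPKM + 1, LysM-cre-labelled library minus floxed control library. The 6 oxidase genes (blue) span −0.14 to 0.07, and Irf8, Irf1, Mpo and Epx lie beyond 0.5 in either direction.

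Ncf4 and Rac2 lie on the same chromosome, 297 kb apart, and the genes between them were read in both libraries. Of 17 rows between them 10 are protein-coding, and 6 of these were kept, 2 higher and 4 lower, with a median log2 difference of −0.02. Csf2rb, the shared signalling chain of the GM-CSF, interleukin 3 and interleukin 5 receptors, stood at 27.9 FPKM in the LysM-cre-labelled library and 29.3 FPKM in the floxed control library (0.951, 0.929 to 0.973). Its close copy Csf2rb2 stood at 17.9 FPKM in the Cre-labelled and 15.3 FPKM in the control library (1.17, 1.12 to 1.21), and since such copies can share reads both values are uncertain. Il2rb, an interleukin 2 receptor chain, stood at 68.8 FPKM in the Cre-labelled and 70.0 FPKM in the control library (0.982, 0.963 to 1.00). The sulfur transferase genes Tst (1.19 FPKM in the Cre-labelled and 1.08 FPKM in the control library) and Mpst (7.50 FPKM in the Cre-labelled and 7.81 FPKM in the control library) and the adaptor gene Kctd17 (1.24 FPKM in the Cre-labelled and 1.27 FPKM in the control library) had intervals that held 1. The coding genes Tmprss6 and C1qtnf6 lay below the minimum, Tmprss6 with 11 counts in the Cre-labelled and 34 in the control library and C1qtnf6 with 154 in the Cre-labelled and 141 in the control library, and Tex33 and Sstr3 held 0 counts in both libraries.

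**Figure D5:**
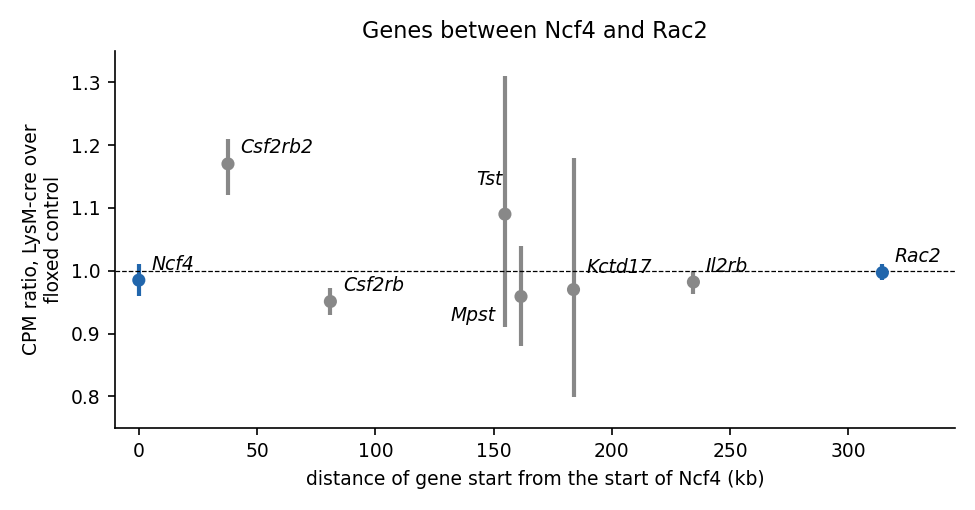
The x axis is the distance of the gene start from the start of Ncf4 in kb, the y axis the CPM ratio, LysM-cre-labelled library over floxed control library, with exact 95% intervals as lines. Ncf4 at 0.985 and Rac2 at 0.997 (blue) lie close to 1, and Csf2rb2 at 1.17 is the one kept gene between them whose interval lies above 1.

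Markers of the cells that carry the oxidase differed in both directions beside these results. In bulk libraries fewer cells of a type and less RNA per cell cannot be told apart. Of 9 neutrophil markers the interval lay below 1 for 8, and their summed level was 8688 FPKM in the LysM-cre-labelled library and 9919 FPKM in the floxed control library. Ly6g stood at 31.3 FPKM in the Cre-labelled and 44.5 FPKM in the control library, while the broader myeloid marker Itgam, whose row overlaps another on the same strand, stood at 108 FPKM in the Cre-labelled and 95.8 FPKM in the control library. Of 7 macrophage markers the interval lay above 1 for 6, with sums of 2110 FPKM in the Cre-labelled and 1913 FPKM in the control library, and Adgre1 stood at 152 FPKM in the Cre-labelled and 137 FPKM in the control library. Of 5 monocyte markers it lay above 1 for 4, with sums of 761 FPKM in the Cre-labelled and 682 FPKM in the control library, and Csf1r stood at 481 FPKM in the Cre-labelled and 456 FPKM in the control library. Most of the gap in these sums lay in Cx3cr1, the fractalkine receptor gene, at 61.6 FPKM in the Cre-labelled and 6.16 FPKM in the control library (9.99, 9.52 to 10.5). The row of Cx3cr1 overlaps 3 rows on the same strand, with 8396 counts in the Cre-labelled and 6432 in the control library. It also overlaps 5 rows on the other strand. Without Cx3cr1 the sums of the monocyte markers were 699 FPKM in the Cre-labelled and 676 FPKM in the control library. Ly6c2, a marker of inflammatory monocytes, was the one lower, at 122 FPKM in the Cre-labelled and 137 FPKM in the control library (0.885, 0.869 to 0.901). All 5 eosinophil markers were higher, with sums of 152 FPKM in the Cre-labelled and 94.2 FPKM in the control library and Epx at 1.91 FPKM in the Cre-labelled and 0.343 FPKM in the control library. Of 5 markers of B and plasma cells (B cells also make the oxidase) the interval lay above 1 for 1, Jchain, and below 1 for 2, with sums of 707 FPKM in the Cre-labelled and 419 FPKM in the control library. Jchain, which encodes the joining chain of antibodies, stood at 555 FPKM in the Cre-labelled and 255 FPKM in the control library, and the other 4 summed to 152 FPKM in the Cre-labelled and 164 FPKM in the control library, the opposite direction. Sums were 65.7 FPKM in the Cre-labelled and 58.9 FPKM in the control library for 5 dendritic cell markers (1 above and 1 below, Flt3 at 4.36 FPKM in the Cre-labelled and 5.07 FPKM in the control library), 139 FPKM in the Cre-labelled and 135 FPKM in the control library for 5 T and NK cell markers (1 above and 1 below, Cd3e at 14.1 FPKM in the Cre-labelled and 14.5 FPKM in the control library), 1161 FPKM in the Cre-labelled and 832 FPKM in the control library for 4 erythroid markers (4 above) and 4.07 FPKM in the Cre-labelled and 3.85 FPKM in the control library for 4 epithelial markers (1 above and 1 below, this one Epcam at 0.780 FPKM in the Cre-labelled and 1.04 FPKM in the control library). Without the marker with the widest gap in FPKM (Itgax, Trac and Krt18) the sums of the dendritic, T and NK, and epithelial markers changed direction. They were then 14.3 FPKM in the Cre-labelled and 14.9 FPKM in the control library for the dendritic markers. For the T and NK markers they were 43.1 FPKM in the Cre-labelled and 44.4 FPKM in the control library. The epithelial sums were 2.64 FPKM in the Cre-labelled and 3.02 FPKM in the control library. No defining marker given here was at 0. The part of these cells in the differences of the oxidase genes was not tested.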

How the data were processed

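The 2 RNA-seq libraries of mouse MDSCs were grouped by the genotype in the labels, with 1 library each. Per the submitters' processing notes, the build was mm10 and the tools included HISAT2 2.0.4, StringTie 1.3.4d and cutadapt 1.9. The sources used here do not say how strand and multi-mapping reads were counted. Per the file headers, each gene row has raw counts and FPKM values made by the authors. The deposited counts are whole numbers without scaling, and the deposited FPKM values are scaled for depth and length. An FPKM of 0.0001 was read as 0. Another 8 columns, of 4 libraries without labels, were left out.

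Genes were kept from a mean of 1 FPKM upward. Differences were log2(FPKM + 1), which understates those of low genes. CPM ratios have exact (Clopper-Pearson) 95% intervals. These intervals and the limit of 3 counts cover counting error only, and take every count as a separate molecule. Where PCR copies or both reads of a pair were counted, the intervals are too narrow and the limit too low even for that. Differences called larger than counting error are so by these intervals alone. Depth was about equal in both libraries. The calculation of ratios and intervals was checked on simulated counts. Alternatives were other scalings (TMM from edgeR 4.0.16, median ratios from DESeq2 1.42.0, R 4.3.3), pseudocounts, minimums and overlapping rows. Transcripts were those of GENCODE M21 on the same build.

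The members and 17 gene lists were chosen with earlier results of these data known. Some genes of these lists are not reported here, and the counts, medians and sums leave them out. Named genes were the members, Mettl3, the complex partners given, in each pathway list the 4 kept genes with the largest difference, the defining markers (of the marker lists mainly these are given) and protein-coding genes between Ncf4 and Rac2. With 2 libraries no likeness of pattern can be measured. Spi1, Daglb, Rac3, Nox1, Noxo1, Cx3cr1, Ly6c2, Jchain, Itgax, Trac, Krt18 and the genes of the closing section outside this rule were named after their values were seen. Scripts ran on Python 3.11.15 with scipy 1.17.1, pandas 2.3.3, numpy 2.4.6 and matplotlib 3.10.9.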

Additional observations from a re-analysis of the deposited data

How the results depend on the processing

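No paired analysis was possible because each genotype had 1 library, and no library could be left out. The CPM ratios of the 6 oxidase genes kept their direction under all 7 alternatives (TMM, median ratios, TPM, totals without immunoglobulin genes, deposited FPKM, rows overlapping on the same strand, and rows overlapping on either strand, the last chosen after seeing the data). They ranged from 0.893 to 0.905 for Cybb, 0.954 to 0.967 for Cyba, 0.917 to 0.929 for Ncf1, 0.973 to 0.986 for Ncf4, 1.04 to 1.07 for Rac1 and 0.985 to 0.999 for Rac2. Most of these alternatives could hardly have changed a direction, so the kept directions say little. No member had an overlapping row on the same strand, and rows on the other strand added counts to Ncf1 and Rac1 alone. The TMM and median-ratio factors were close to 1, and the deposited FPKM is scaled for depth as CPM is. With TPM in place of total counts, Cybb at 0.893 and Rac2 at 0.985 moved outside their counting interval; TPM is scaled to the sum of FPKM of each library. The numbers of genes at least 2-fold higher and lower in the LysM-cre-labelled library, 164 and 148, were 251 and 252 at a pseudocount of 0.1 FPKM, 62 and 54 at 5 FPKM, 90 and 73 at a minimum mean of 5 FPKM, and 59 and 50 among protein-coding genes. Fewer genes entered the last 2 settings. Medians of the members and of the 7 pathway lists with kept genes moved by less than 0.1 under all 5 alternatives tried, and those of the marker lists were not recomputed. Counts per kilobase of the transcript with the longest coding part moved the level of Cybb over Cyba to 0.615 in the LysM-cre-labelled library and 0.657 in the floxed control library, and that of Ncf1 over Ncf4 to 1.25 in the LysM-cre-labelled library and 1.32 in the floxed control library. At this depth and with total counts, differences within the intervals of Ncf4 (0.959 to 1.01) and Rac2 (0.986 to 1.01) could not be seen. Intervals with TPM are not given, so whether those of Ncf4 and Rac2 would still hold 1 is not known. The single library per genotype limits all values.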

Other observations

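A list of enzymes that use or remove superoxide and peroxide, or supply the NADPH and glutathione for this, held genes on both sides of 1. Of 17 listed genes 16 were kept, with the CPM ratio interval above 1 for 9 and below 1 for 4 (backgrounds of 30.1% and 29.7% of all genes kept) and a median log2 difference of 0.11, against 0.00 over all genes. Gpx1, a glutathione peroxidase, stood at 495 FPKM in the LysM-cre-labelled library and 351 FPKM in the floxed control library (1.41, 1.39 to 1.43). Mpo, which turns peroxide into hypochlorous acid, stood at 12.5 FPKM in the Cre-labelled and 8.25 FPKM in the control library (1.51, 1.43 to 1.60), and Epx, its eosinophil relative, at 1.91 FPKM in the Cre-labelled and 0.343 FPKM in the control library (5.55, 4.23 to 7.38). Txnrd1, a thioredoxin reductase, stood at 11.8 FPKM in the Cre-labelled and 9.81 FPKM in the control library (interval 1.16 to 1.25), and the peroxide-removing catalase gene Cat at 63.6 FPKM in the Cre-labelled and 55.6 FPKM in the control library (1.14, 1.11 to 1.18). Of the genes of this list that supply or use NADPH for glutathione, none of the 3 had an interval above 1, with G6pdx at 97.0 FPKM in the Cre-labelled and 96.1 FPKM in the control library (1.01, 0.989 to 1.03), Pgd at 47.9 FPKM in the Cre-labelled and 52.0 FPKM in the control library (0.921, 0.904 to 0.939) and the glutathione reductase gene Gsr at 192 FPKM in the Cre-labelled and 210 FPKM in the control library (0.915, 0.902 to 0.929). Eosinophil markers (5 of 5 with an interval above 1), erythroid markers (4 of 4) and macrophage markers (6 of 7), given above, were higher in the same library, and their part in these values was not tested. Of 16 actin-side targets of Rac 15 were kept, with the interval above 1 for 6 and below 1 for 6 and a median of 0.02. Arpc1b, of the actin-nucleating complex, stood at 119 FPKM in the Cre-labelled and 105 FPKM in the control library (1.13, 1.11 to 1.14) and Wasf2, a WAVE protein, at 47.3 FPKM in the Cre-labelled and 52.8 FPKM in the control library (0.896, 0.879 to 0.913). Brk1 stood at 130 FPKM in the Cre-labelled and 120 FPKM in the control library (1.08, 1.05 to 1.11) and Baiap2 at 3.80 FPKM in the Cre-labelled and 3.37 FPKM in the control library (1.13, 1.04 to 1.22).

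The letters GGACT, a common form of the motif that the Mettl3 complex methylates, occurred 2 times in the transcript of Cyba with the longest coding part (2.69 per kilobase), 3 times in that of Ncf4 (2.05), 5 times in that of Ncf1 (1.81), 4 times in that of Rac2 (1.32), 5 times in that of Cybb (1.05) and once in that of Rac1 (0.430). The median over 10132 genes kept was 1.05 per kilobase, and 91.0% held at least 1. In Cybb 4 of the 5 lay after the stop codon, in Ncf1 3 of 5 and in Rac2 3 of 4, while Cyba, Ncf4 and Rac1 had none there. Methylation was not measured in these libraries, so the letters say nothing of which sites carry it.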
